A study of Homo sapiens with 84 samples.

Results

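The hemidesmosome and laminin-332 genes ITGA6, ITGB4, LAMA3, LAMB3, COL17A1, COL7A1, PLEC, DST and CD151 were followed through 3′ RNA-seq of 2 squamous carcinoma cell lines. They were chosen by symbol, each through its Ensembl identifier, and are 9 of the 58395 gene identifiers counted in every library. Kyse30 derives from a carcinoma of the esophagus and FaDu from a carcinoma of the pharynx, and all cells of both lines had been deprived of serum before treatment. Cells stayed untreated (Ctrl) for 0, 6 or 72 h, or were given recombinant Fc, the extracellular domain of EpCAM fused to Fc (EpEX), EGF at 1.8 nM (EGFlow), EGF at 9 nM (EGFhigh) or EGFhigh together with EpEX for 6 or 72 h. Of the 84 libraries, 43 of Kyse30 with 3 or 4 per condition and the 20 of FaDu with replicate label 3 or 4 were used. The FaDu libraries gave 2 or 1 per condition. Fc alone is the control of EpEX, and untreated cells are the control of EGF. Each line is a single established carcinoma line, and the labels do not say whether replicates came from separate cultures, so p-values measure the spread between these libraries, which may be technical.

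Hemidesmosomes are the rivets with which basal cells of stratified epithelia hold on to the basement membrane. The integrin α6β4 spans the cell membrane, binds laminin-332 outside the cell, and is tied inside the cell to keratin filaments by the plakins plectin and BP230. Laminin-332 is a trimer, with an α3 and a β3 chain among its parts, laid down by the epithelial cells themselves, collagen XVII passes through the membrane beside the integrin, and collagen VII forms the anchoring fibrils below. In migrating epithelium and squamous carcinoma, laminin-332 and α6β4 are known for roles in movement as well as in attachment.

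A Kyse30 library held between 1944948 and 11759799 counts on genes, with a median of 6304338. For FaDu replicates 3 and 4 the lowest total was 6217938, the median 9259762 and the highest 12442349. Levels are given in CPM, with library sizes corrected by the TMM method of edgeR. A count of 3, taken as the smallest readable amount, is worth 1.54 CPM in the shallowest Kyse30 library and 0.241 CPM in the deepest FaDu library. Only the 3′ end of a transcript is read, so a level in CPM does not grow with transcript length. Of the markers of squamous epithelium, SFN, CDH1 and EPCAM had medians of 802.7, 189.0 and 212.2 CPM in Kyse30. KRT17 and TP63, of the same list, were lower there, with medians of 11.71 and 19.27 CPM. The basal keratins KRT5 and KRT14, the filaments to which hemidesmosomes attach in skin, were near the floor there, with medians of 2.10 and 0.689 CPM. In FaDu KRT5 and KRT14 had medians of 204.5 and 11.5 CPM. Medians of the other markers there were 914.5 CPM for KRT17, 540.9 for SFN, 380.0 for EPCAM, 43.58 for CDH1 and 31.44 for TP63. Summed over its 6 markers, the fibroblast list had a median of 20.21 CPM in Kyse30 and 11.08 CPM in FaDu, with COL1A1 the most abundant and DCN and LUM at a median of 0 in Kyse30. The sums were 0.809 and 0.796 CPM for 5 leukocyte markers and 2.29 and 4.96 CPM for 4 endothelial markers.

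Some libraries stood apart. The 21 FaDu libraries labelled replicate 1 or 2 had a median Spearman correlation of 0.798 with those labelled 3 or 4, against 0.965 within the latter (14174 genes), and were used only in an alternative fit of all FaDu libraries. Some of them were lower and some higher than any library of replicates 3 and 4. ITGB4 was below the lowest of these in 16 of the 21, whereas ITGA6 reached 1268.5, COL17A1 1546.2 and LAMA3 572.9 CPM of plain library totals. The highest values in replicates 3 and 4 were 203.8, 120.4 and 12.53 CPM, and in Kyse30 1298.4, 1031.7 and 116.1 CPM. For 3 of the 21 the median correlation was higher with Kyse30 than with FaDu replicates 3 and 4, by at most 0.00329. Whether they carry the right labels was not tested. In Kyse30, the library labelled replicate 4 had the highest ITGB4, LAMB3, COL17A1 and PLEC in 9 of the 10 conditions that hold one. Its COL17A1 ran from 589.9 to 1082.2 CPM (median 698.8, n = 10), and that of the other 24 libraries of those conditions from 185.0 to 683.0 CPM (median 344.9). COL7A1 was highest in replicate 4 in 8 of the 10 conditions, DST in 7, ITGA6 and LAMA3 in 3 each and CD151 in none. Untreated, Fc and EGFhigh + EpEX cells at 72 h have no replicate 4, whereas EGFhigh cells at 72 h do, so the calls it bears on are given with and without these libraries. The labels do not say what the number stands for. Its part in the results was tested only by leaving the libraries out and by entering the number as a block.

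A pair of single Kyse30 libraries also lay far from their own groups, by the chi-square of their counts per degree of freedom (median 22.5 over the 51 pairs of libraries of the same condition). Replicate 3 of EGFhigh + EpEX at 6 h gave 43.5 to 65 with the others of its group, and had the highest share of reads without a unique place of all Kyse30 libraries (43.6%). Its CDH1, the gene for E-cadherin, was at 58.76 CPM, against 180.3, 205.4 and 216.5 CPM in the others. Replicate 1 of EGFhigh at 72 h gave 54.5 and 58.3, where replicates 3 and 4 gave 17.9 with each other, and its CDH1 was at 44.20 CPM against 334.3 and 251.6 CPM. The calls among the 9 genes that include either library of this pair held without it. Other libraries showed some of these signs. Replicate 1 of EGFlow at 72 h had CDH1 at 44.34 CPM, against 164.2, 260.5 and 160.9 CPM in the others. It entered the comparison of doses, and gave 28.9 to 38.5. Replicate 3 of Fc at 72 h had CDH1 at 68.34 CPM, against 172.9 and 243.0 CPM. Replicate 1 of untreated cells at 0 h gave 40.9 and 41.6, where replicates 3 and 4 gave 17.6 with each other.

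**Figure D1:**
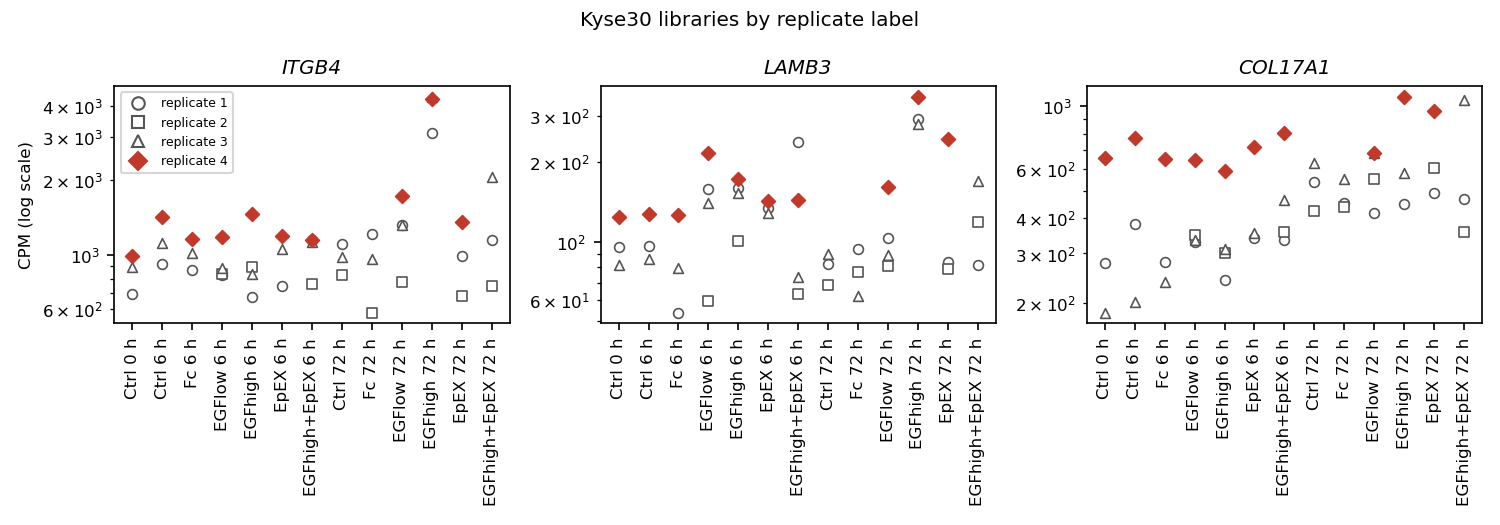
ITGB4, LAMB3 and COL17A1 in every Kyse30 library (CPM, log axis) by condition, with libraries labelled replicate 4 as filled red diamonds and replicates 1, 2 and 3 as open circles, squares and triangles. The red diamond is the highest point in 9 of the 10 conditions that hold one for each of the 3 genes.

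In Kyse30, the genes lay at very different levels. ITGB4 (median 1017.1 CPM, range 582.8 to 4357.0 over 43 libraries), ITGA6 (838.6, 499.6 to 1199.0) and DST (759.1, 247.7 to 1744.0) were the most abundant. COL17A1 had a median of 452.1 CPM (185.0 to 1082.2), PLEC of 287.6 (138.3 to 567.9) and CD151 of 198.0 (135.2 to 363.5). Of the laminin-332 chains, LAMB3 had a median of 103.5 CPM (54 to 353.7) and LAMA3 of 37.75 (17.09 to 123.6). COL7A1 was close to the floor, with a median of 5.35 CPM (0.621 to 16.48), so that its changes could be read only coarsely. The ranges of ITGB4, ITGA6 and DST overlap one another, while no LAMA3 library reached the lowest value of COL17A1, PLEC or CD151. ITGB4, LAMA3, LAMB3 and COL17A1 had their highest condition mean after 72 h of EGFhigh, and ITGA6 after 6 h of EpEX. For COL17A1 the lead was small, at 704.3 against 686.6 CPM after 72 h of EpEX. Its highest EGFhigh library there, at 1082.2 CPM, was replicate 4. Between the lowest and the highest condition mean, ITGB4 differed 4.58-fold and ITGA6 1.89-fold.

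**Figure D2:**
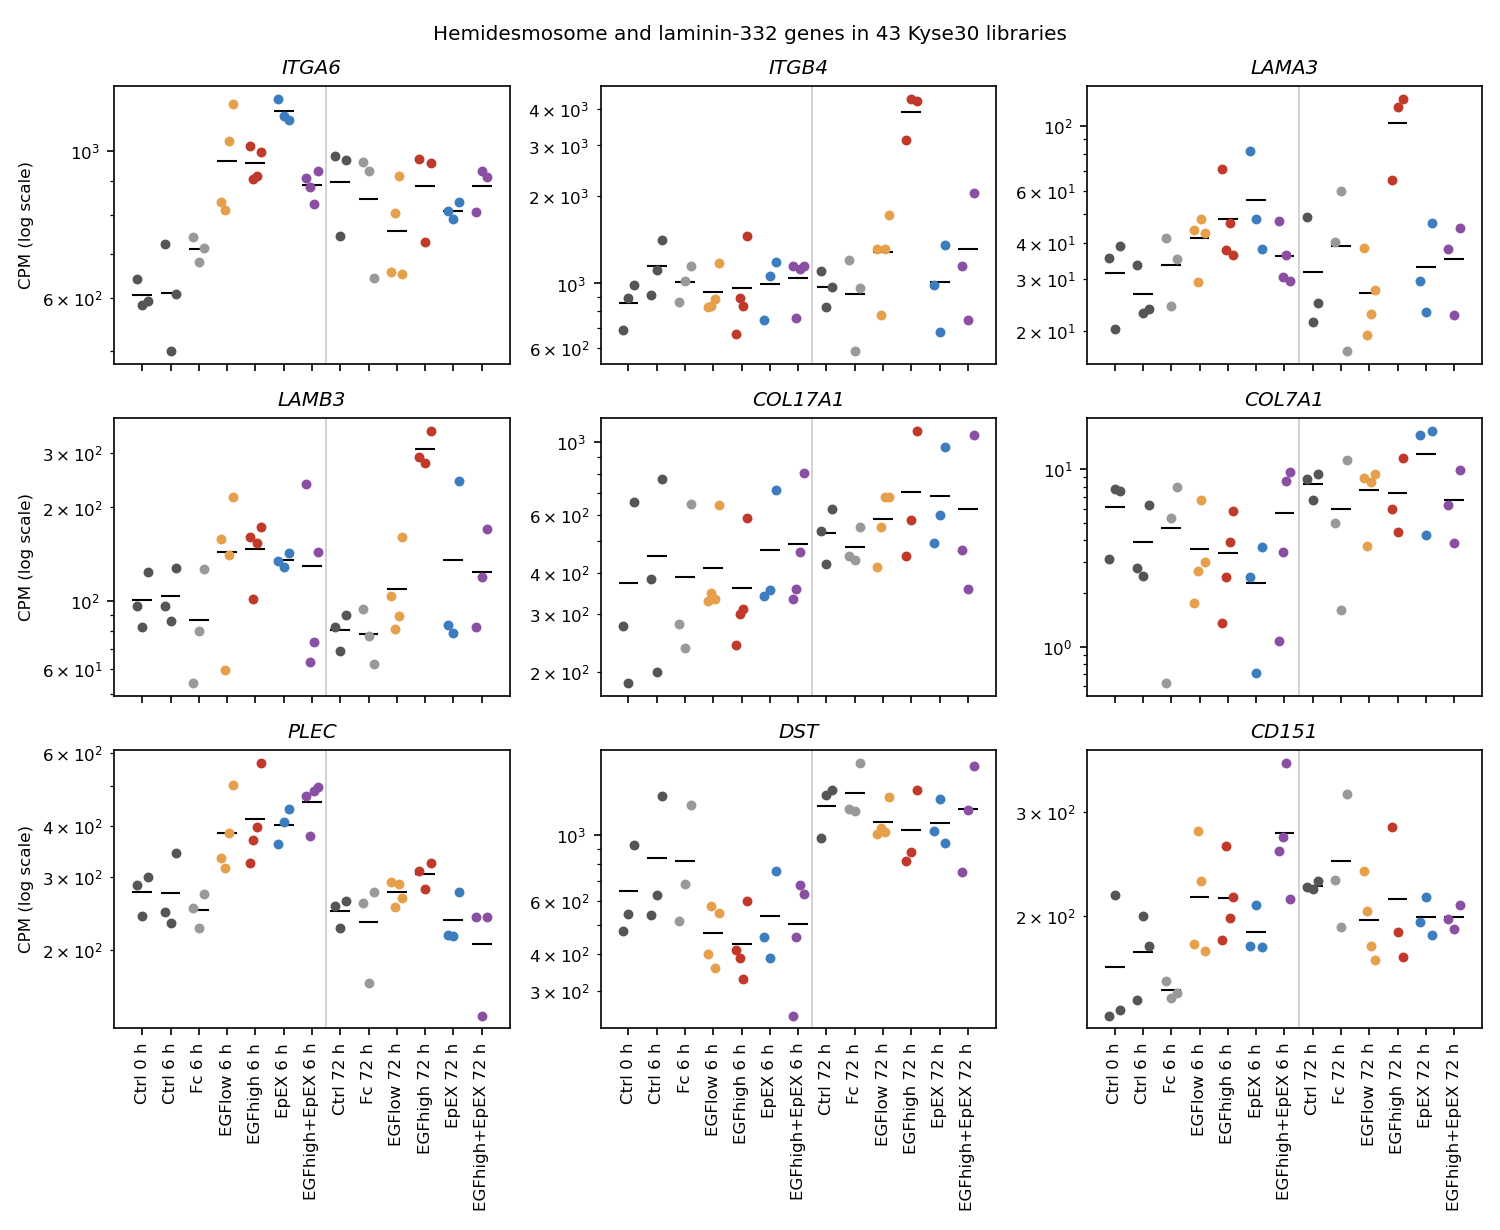
Each of the 9 genes in the 13 Kyse30 conditions (CPM, log axis), with a point for each library and a line at the condition mean. ITGB4, LAMA3 and LAMB3 stand out after 72 h of EGFhigh, where their means were 3917.2, 101.8 and 307.9 CPM, while the conditions of ITGA6 lie within a 1.89-fold range of means.

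The first question was which of these genes responded to EGFhigh at 72 h, the time and dose at which the study followed epithelial-to-mesenchymal transition. In Kyse30, 3 of the 9 rose: the β4 integrin subunit and the α3 and β3 chains of its ligand laminin-332. None fell. Of all 15350 genes tested, 6.2% were called and 3.04% called higher. A gene was called by edgeR's quasi-likelihood test when its Benjamini-Hochberg adjusted p did not exceed 0.05 and its log2FC, the log2 fold change, was above 0.5 or below -0.5. The study itself picked ITGB4 and this laminin for further work from these libraries, so their direction is not independent evidence. In bulk RNA, fewer cells that express a gene and less of its RNA per cell cannot be told apart.

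ITGB4 (ENSG00000132470, chr17:75721328-75757818, + strand, GRCh38) encodes the β4 subunit, whose long cytoplasmic tail binds plectin. It stood at 1105.3, 826.6 and 974.4 CPM in the untreated libraries and at 3122.7, 4357.0 and 4271.8 CPM after EGFhigh. The lowest treated library was thus far above the highest control. The means were 968.8 ± 139.4 and 3917.2 ± 689.3 CPM (SD, n = 3 each), with a log2FC of 2.02 (standard error 0.31, adjusted p = 2.73e-05).

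LAMB3 (ENSG00000196878, chr1:209614870-209652466, − strand) encodes the β3 chain, which laminin-332 shares with few other laminins. Its untreated libraries held 82.42, 68.50 and 90.18 CPM and its EGFhigh libraries 290.5, 279.4 and 353.7 CPM, again without overlap. LAMB3 rose from 80.37 ± 10.98 to 307.9 ± 40.06 CPM, a log2FC of 1.94 (0.40, adjusted p = 0.00158).

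LAMA3 (ENSG00000053747, chr18:23689443-23956222, + strand) encodes the α3 chain, whose end holds the site that integrins bind. It was read at 48.84, 21.56 and 24.95 CPM without and at 65.55, 116.1 and 123.6 CPM with EGFhigh. The groups did not overlap, although the first replicate of each lay near the other group. The log2FC was 1.67 (0.37, adjusted p = 0.00311).

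Without the libraries labelled replicate 4, ITGB4 (log2FC 1.95, adjusted p = 0.000139), LAMB3 (1.83, 0.00305) and LAMA3 (1.5, 0.0324) were still called. Without EGFhigh replicate 1, which stood apart, they were called as well, at 2.16 (4.97e-05), 1.99 (0.00332) and 1.91 (0.00168). Over all alternatives and left-out libraries the adjusted p ranged from 6.23e-17 to 0.00108 for ITGB4, from 1.93e-12 to 0.0176 for LAMB3 and from 1.78e-06 to 0.0423 for LAMA3.

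**Figure D3:**
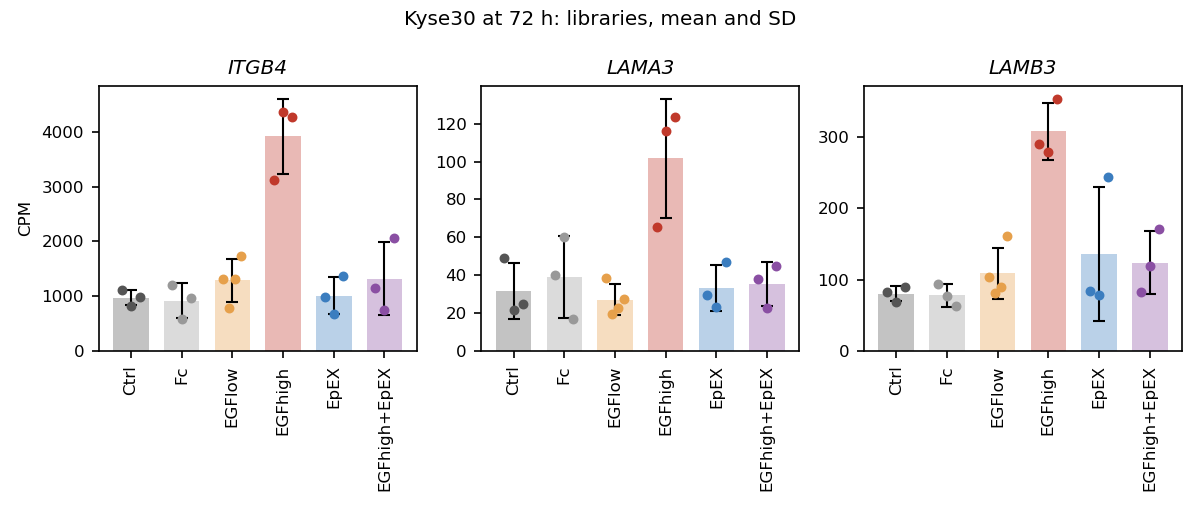
ITGB4, LAMA3 and LAMB3 in Kyse30 at 72 h (CPM, linear axis from 0), with bars at the mean, error bars of 1 SD and a point for each library. The EGFhigh bar is the tallest in each panel, at 3917.2 CPM for ITGB4, and no EGFhigh point falls within the range of the untreated libraries.

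The other 6 genes were not called. ITGA6, which encodes the α6 subunit that pairs with β4, was at 983.1, 743.8 and 970.5 CPM without and at 971.6, 730.7 and 959.4 CPM with EGFhigh. These values nearly coincide (log2FC -0.02, standard error 0.17, adjusted p = 0.974). PLEC, which encodes plectin, had 255.0, 226.1 and 262.8 CPM against 310.6, 281.5 and 325.3 CPM. Its groups did not overlap, as was the case for 22.9% of all genes tested, and its log2FC was 0.30 (adjusted p = 0.458). COL17A1, the collagen XVII gene, had a log2FC of 0.41 (adjusted p = 0.679), with EGFhigh libraries at 451.3, 579.5 and 1082.2 CPM, the last being replicate 4, and without libraries labelled replicate 4 it was -0.04 (0.976). For DST, which encodes BP230 and other forms of dystonin, the log2FC was -0.27 (adjusted p = 0.736), for CD151, a tetraspanin that holds laminin-binding integrins in the membrane, -0.07 (0.905) and for COL7A1 -0.18 (0.931). The median log2FC of the 9 genes was 0.30, and that of all genes tested was -0.03.

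Because LAMA3 and LAMB3 rose together, stretches around transcription starts were read from RefSeq (GRCh38.p14), as windows of 250 bases before and 50 bases after each listed start. Windows were searched for 6 of the 9 genes, 11 windows in all. No window was available for ITGB4 and CD151. PLEC was left out of the search, so the 11 windows are not a complete set for the 9 genes. The letters TGANTCA, the site that AP-1 factors downstream of growth factor signaling are known to bind, were searched on both strands, where they read the same. They stood in 3 of the 11 windows, belonging to LAMB3, LAMA3 and DST, and in 7.71% of the 35116 windows of all genes. Also searched were the GC box GGGCGG (8 of the 11 windows, 45% of all) and TATAAA (3 of the 11 windows, 11.5% of all), and none of the TGANTCA matches shares a base with either. Each match is given with 10 bases on each side, 5′ to 3′ on the gene's strand and with the motif in capitals.

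LAMB3, chr1:209651425-209651451, 67 bases before the most downstream of its 3 listed starts, inside an intron of the annotated gene: tcagccactcTGACTCAttcactttgg
LAMA3, chr18:23872885-23872911, 125 bases before the listed start, in an exon annotated as untranslated: tggcacaggcTGACTCAtgtgtgaagt
LAMA3, chr18:23872941-23872967, 69 bases before the same start, also in an exon annotated as untranslated: cttcctcaccTGAGTCAggcaggcccg
DST, chr6:56954789-56954815, 26 bases after its most upstream RefSeq start, which lies before the gene as GENCODE has it: cgctgtctgcTGAGTCAtggcaagcgc

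LAMA3 and LAMB3 were called in the EGFhigh comparison at 72 h and DST was not, although all hold the motif, and ITGB4, which was called too, was not searched. The match describes letters only, and no binding was measured here.

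At 72 h the doses of EGF differed. Against EGFlow, EGFhigh libraries held more ITGB4 (log2FC 1.61, standard error 0.28, adjusted p = 0.000219), LAMA3 (1.91, 0.34, 0.000364) and LAMB3 (1.5, 0.36, 0.0101), so that 3 of the 9 genes were called, where 3.73% of all genes were called and 2.03% called higher. The 4 EGFlow libraries had ITGB4 at 1317.2, 777.8, 1320.1 and 1726.6 CPM. Their highest value, in replicate 4, was still below the lowest EGFhigh value of 3122.7 CPM. LAMB3 at 103.5, 80.89, 89.47 and 160.8 CPM and LAMA3 at 38.28, 19.43, 22.86 and 27.53 CPM in EGFlow libraries were likewise all below the EGFhigh libraries, and 12.4% of all genes showed no overlap here. Leaving out EGFlow replicate 2 left LAMB3 just short of the threshold (log2FC 1.41, adjusted p = 0.051), and over all alternatives its adjusted p ranged from 4.29e-09 to 0.051. Between EGFlow and untreated cells at 72 h, edgeR called 0 of the 15350 genes, and DESeq2 none. There 439 genes (2.86%) had an unadjusted p under 0.05, and none of the 9 was among them. The log2FC was 0.41 for ITGB4 and 0.44 for LAMB3 there, with standard errors of 0.28 and 0.37. These comparisons share the EGFhigh and the untreated libraries and are not independent of each other.

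Adding EpEX to EGFhigh lowered ITGB4 and LAMA3 at 72 h, 2 of the 9 genes, with 3.58% of all genes called and 1.72% called lower. ITGB4 was at 1148.4, 747.4 and 2058.8 CPM in the combination, with the third library well above the others but below every EGFhigh library. Its log2FC against EGFhigh was -1.57 (0.30, adjusted p = 0.00121). LAMA3 was read at 38.20, 22.73 and 45.01 CPM and fell by 1.52 on the log2 scale (0.37, adjusted p = 0.0107). LAMB3 at 81.98, 118.8 and 170.5 CPM did not overlap with EGFhigh either, but its log2FC of -1.31 (0.40) missed the threshold with an adjusted p of 0.0504, and DESeq2 gave it 0.0201 (range over all alternatives 1.03e-05 to 0.209). PLEC was at 239.5, 138.3 and 240.3 CPM and had a log2FC of -0.57 (adjusted p = 0.132). Groups without overlap were found for 4 of the 9 genes and for 19.9% of all genes.

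The EGFhigh libraries here include a replicate 4 and those of the combination do not. Without the libraries labelled replicate 4, ITGB4 was still called (log2FC -1.51, adjusted p = 0.00398), and LAMA3 was not (-1.36, adjusted p = 0.073). LAMA3 also missed the threshold without replicate 2 of the combination (adjusted p = 0.13) or without replicate 4 of EGFhigh (0.0515), and over all alternatives its adjusted p ranged from 3.13e-05 to 0.13. That of ITGB4 ranged from 3.28e-10 to 0.0373. The combination contains Fc and EGFhigh alone does not. Fc alone against untreated cells at 72 h gave 0 of 15350 genes called by edgeR or DESeq2 (439 genes or 2.86% at an unadjusted p under 0.05, none of the 9), with a log2FC of -0.08 for ITGB4, 0.30 for LAMA3 and -0.04 for LAMB3.

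Against its own control Fc, the combination at 72 h had none of the 9 genes and 0 of all genes called by edgeR or DESeq2, with 601 genes (3.92%) at an unadjusted p under 0.05. ITGB4 in the Fc libraries was at 1209.5, 582.8 and 961.0 CPM, overlapping with the combination (log2FC 0.52, standard error 0.30, adjusted p = 1). EpEX alone at 72 h gave 0 called genes by edgeR, 2 by DESeq2, none of them among the 9, and 554 (3.61%) at an unadjusted p under 0.05. Its LAMB3 libraries were at 83.67, 78.63 and 244.2 CPM, the last of them replicate 4 (log2FC 0.79, adjusted p = 1, and 0.06 without libraries labelled replicate 4). None of the 9 genes had an unadjusted p under 0.05 in either comparison.

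At 6 h the picture differed: ITGA6, not ITGB4, was the gene called with EGF. ITGA6 (ENSG00000091409, chr2:172427354-172506282, + strand) was at 724.3, 499.6 and 609.6 CPM in untreated Kyse30 cells. After EGFlow it was at 838.6, 815.7, 1036.6 and 1177.4 CPM, and after EGFhigh at 1016.0, 906.0, 916.7 and 994.9 CPM. Neither treated group overlapped with the controls, as for 13.7% of all genes with EGFlow and 15.3% with EGFhigh. ITGA6 rose by a log2FC of 0.66 with EGFlow (0.16, adjusted p = 0.0266), where 1.5% of all genes were called and 0.814% called higher, and of 0.65 with EGFhigh (0.16, adjusted p = 0.0198), where 2.55% were called and 1.34% called higher. It was the only one of the 9 genes called in either comparison. Both use the same 3 control libraries. EGFhigh and EGFlow did not differ at 6 h in any gene by edgeR or DESeq2, with 435 genes (2.83%) and none of the 9 at an unadjusted p under 0.05. Without the libraries labelled replicate 4 the log2FC was 0.55 and 0.63, and neither passed the test (adjusted p = 0.431 and 0.21), in fits that called 1 gene and 45 genes in all. Both were also lost without a filter on low counts (0.056 and 0.0514). Leaving out untreated replicate 3 or replicate 4 alone ended both calls too, as did leaving out EGFlow replicate 3 or 4 for EGFlow. The adjusted p over all alternatives ran from 0.00179 to 0.431 for EGFlow and from 0.00104 to 0.21 for EGFhigh.

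After EpEX at 6 h, ITGA6 was at 1199.0, 1130.1 and 1112.4 CPM, against 742.4, 681.4 and 714.0 CPM with Fc. Here too the groups did not overlap, as for 13.2% of all genes, and the log2FC of 0.69 (0.17) was as large as with EGF, but its adjusted p was 0.099 with edgeR, which called 0.0261% of all genes in this comparison. At an unadjusted p under 0.05 there were 3 of the 9 genes and 9.45% of all genes. DESeq2 gave it an adjusted p of 0.0116, and the range over all alternatives was 0.0039 to 0.535. In the combination of EGFhigh and EpEX, ITGA6 was at 911.3, 882.6, 831.5 and 934.1 CPM, with a log2FC of 0.32 against Fc (0.16, adjusted p = 0.268).

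The combination at 6 h raised PLEC and CD151 against Fc, 2 of the 9 genes, where 4.52% of all genes were called and 3.01% called higher. PLEC was at 471.8, 378.4, 484.9 and 495.8 CPM with the combination and at 251.8, 225.6 and 272.3 CPM with Fc, all treated libraries being higher (log2FC 0.87, standard error 0.20, adjusted p = 0.00731). CD151 (ENSG00000177697, chr11:832843-839831, + strand) was at 257.6, 272.5, 363.5 and 213.6 CPM and at 154.7, 145.1 and 147.9 CPM, also without overlap, as for 15.1% of all genes (0.89, 0.21, 0.00789). Both were still called without the libraries labelled replicate 4, with adjusted p-values of 0.0409 and 0.0457, and without any 1 library of the comparison. Without replicate 3 of the combination, the library that stood apart and had the highest CD151, the log2FC was 0.76 (adjusted p = 0.0312) for CD151 and 0.87 (0.0126) for PLEC. With only these groups in the fit CD151 missed the threshold (adjusted p = 0.0627). Over all alternatives the adjusted p ranged from 0.000157 to 0.0475 for PLEC and from 0.000841 to 0.0627 for CD151. The combination did not differ from EGFhigh alone at 6 h in any of 15350 genes by edgeR or DESeq2 (577 genes or 3.76% at an unadjusted p under 0.05, none of the 9), nor did Fc from untreated cells (435 genes or 2.83%, none of the 9). In EGFhigh libraries PLEC was at 324.6, 369.4, 397.1 and 567.9 CPM against 247.5, 232.8 and 344.1 CPM in untreated cells (log2FC 0.59, adjusted p = 0.102 with edgeR and 0.0372 with DESeq2, and 0.60 and 0.29 with edgeR without libraries labelled replicate 4).

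DST did not pass the test at 6 h. It stood at 537.8, 627.3 and 1348.5 CPM in untreated cells, the last being replicate 4, and at 410.9, 386.8, 328.7 and 600.2 CPM after EGFhigh (log2FC -0.96, standard error 0.32, adjusted p = 0.102). With EGFlow its log2FC was -0.83 (adjusted p = 0.2). Without libraries labelled replicate 4 these were -0.63 (0.426) and -0.39 (0.778). Without a filter on low counts, however, DST was called in both comparisons (-0.93, adjusted p = 0.000656, and -0.81, 0.00884). With the replicate number entered as a block it was called with EGFhigh (-0.87, 0.0217) and not with EGFlow (-0.73, 0.0793). With untreated and Fc libraries together as control it was called with EGFhigh. Of the laminin chains, LAMA3 had a log2FC of 0.84 with EGFhigh at 6 h (adjusted p = 0.22) and LAMB3 of 0.51 (0.572).

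ITGB4 did not rise at 6 h. Untreated libraries held 912.3, 1115.8 and 1418.7 CPM and EGFhigh libraries 670.6, 887.8, 837.3 and 1462.0 CPM, with overlapping groups (log2FC -0.25, adjusted p = 0.743). Whether the EGFhigh response at 72 h differed from that at 6 h was tested as an interaction. Of the 9 genes ITGB4 was called, with a difference of 2.27 between the log2FC values (0.41, adjusted p = 0.00166), where 1.01% of all genes were called and 0.495% called higher. The same test for EGFlow called 0 genes by edgeR and 43 by DESeq2, with 1229 genes (8.01%) and 1 of the 9, ITGA6, at an unadjusted p under 0.05 (difference -0.91, standard error 0.23, adjusted p = 0.17). ITGA6 was among the DESeq2 calls there (-0.90, adjusted p = 0.0151). For EGFhigh the difference was 1.43 for LAMB3 (0.53, adjusted p = 0.197), 0.83 for LAMA3 (0.50, 0.479) and -0.67 for ITGA6 (0.23, 0.171), none of which passed the test. Without the libraries labelled replicate 4, ITGB4 was still called (2.29, adjusted p = 0.0072), and over all alternatives and left-out libraries its adjusted p ranged from 3.09e-11 to 0.0103. In untreated cells edgeR called none of the 9 genes between 72 and 6 h (1.55% of all genes). ITGA6 had a log2FC of 0.56 there (adjusted p = 0.0859) and was the 1 gene of the 9 at an unadjusted p under 0.05, as were 13.2% of all genes. DESeq2 called ITGA6 (0.57, adjusted p = 0.0168), as did edgeR with the replicate number as a block (0.59, 0.0454). Groups did not overlap for 3 of the 9 genes and 20.7% of all. Between 6 and 0 h, 0 genes were called by edgeR or DESeq2, with 355 (2.31%) and none of the 9 at an unadjusted p under 0.05.

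**Figure D4:**
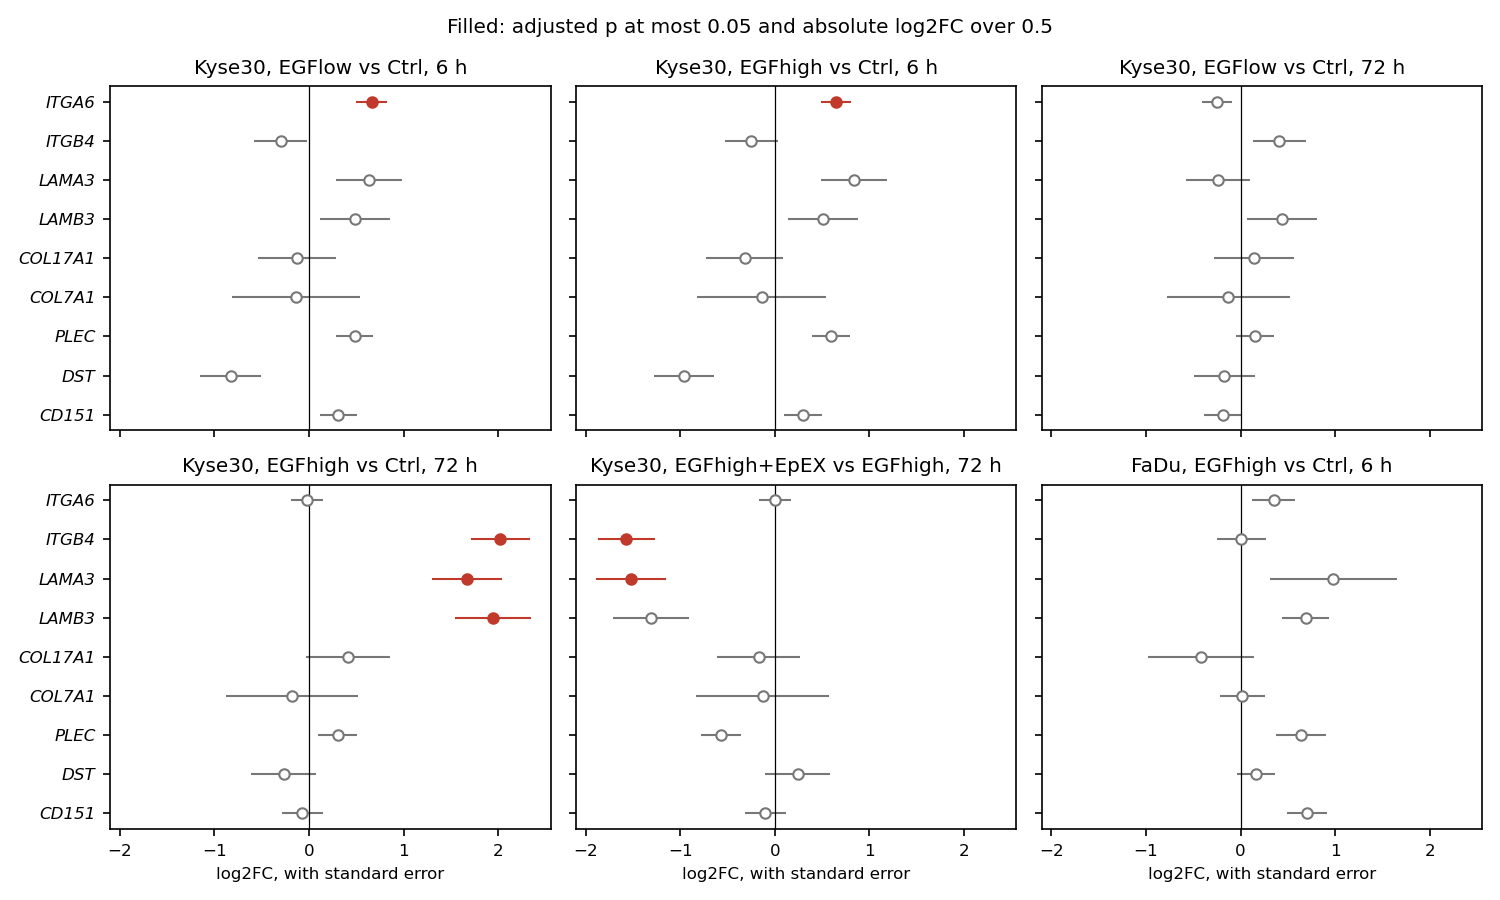
log2FC of the 9 genes in 6 comparisons, with error bars of 1 standard error and filled points for called genes. ITGB4, LAMA3 and LAMB3 lie at 2.02, 1.67 and 1.94 for EGFhigh at 72 h in Kyse30, whereas ITGB4 lies at -0.25 at 6 h.

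FaDu cells expressed the genes at lower levels, apart from COL7A1. Over the 20 libraries, ITGB4 had a median of 220.9 CPM (148.1 to 565.1), ITGA6 of 79.28 (54.02 to 201.2), LAMB3 of 41.17 (20.74 to 116.0), COL17A1 of 26.56 (7.77 to 118.8), LAMA3 of 4.35 (1.37 to 13.07) and COL7A1 of 65.12 (19.75 to 125.6). At 6 h, EGFlow raised LAMB3, the single gene of the 9 called, where 3.45% of all genes were called and 2.55% called higher. LAMB3 stood at 38.86 and 36.36 CPM in untreated and at 66.28 and 87.62 CPM in EGFlow libraries (log2FC 1.03, standard error 0.25, adjusted p = 0.0288). With 2 libraries a group, 42.8% of all genes did not overlap either. EGFhigh gave LAMB3 values of 59.48 and 61.91 CPM (0.69, adjusted p = 0.199, 3.06% of all genes called), and EpEX 51.18 and 77.95 CPM against 33.95 and 41.11 CPM with Fc (0.78, adjusted p = 0.117, 3.5% called). CD151 had a log2FC of 0.70 with EGFhigh (adjusted p = 0.0799) and 0.73 with EpEX (0.0636). At an unadjusted p under 0.05 stood 3 of the 9 genes with EGFhigh (14.1% of all genes) and 4 with EpEX (13.9%), and groups did not overlap for 5 (40.8% of all genes) and 4 (39.8%). ITGB4 had log2FC values of 0.02, 0.01 and -0.01 for EGFlow, EGFhigh and EpEX at 6 h, each smaller than its standard error of 0.26. Neither EGFhigh against EGFlow (393 genes or 2.45% at an unadjusted p under 0.05) nor Fc against untreated cells (275 genes or 1.72%) had any gene called by edgeR or DESeq2, or any of the 9 genes at an unadjusted p under 0.05.

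The LAMB3 call in FaDu was lost without untreated replicate 3 (adjusted p = 0.182), untreated replicate 4 (0.172) or EGFlow replicate 4 (0.303). With all FaDu libraries in the fit, those of replicates 1 and 2 included, its log2FC was 0.37 (adjusted p = 1), and no gene was called. In replicates 1 and 2, LAMB3 ran from 2.007 to 891.6 CPM of plain library totals, beyond the Kyse30 range of 57.52 to 332.3 CPM on both sides. Over all alternatives the adjusted p of LAMB3 ran from 0.00141 to 1.

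At 72 h only Fc and the combination had 2 FaDu libraries each. None of the 9 genes was called between them (0.818% of all genes called), although 4 had an unadjusted p under 0.05, as did 6.78% of all genes, and 2 were called by DESeq2. ITGB4 was at 148.1 and 194.5 CPM with Fc and at 269.0 and 406.8 CPM with the combination (log2FC 0.98, standard error 0.26, adjusted p = 0.123). PLEC was at 67.13 and 111.9 CPM and at 175.6 and 177.4 CPM (0.98, 0.26, 0.116). In both, all treated libraries were higher, and groups without overlap were found for 7 of the 9 genes and 41.1% of all genes. COL7A1 rose between 6 and 72 h of Fc, from 51.36 and 51.84 to 98.11 and 94.90 CPM (0.90, 0.24, adjusted p = 0.0478). In this comparison 2.88% of all genes were called, 0.974% called higher and 48.5% without overlap. It is a call that leaving out any 1 of the 4 libraries ended, with an adjusted p between 0.16 and 0.242, and over all alternatives the adjusted p ranged from 0.0035 to 1.

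The single EGFhigh library of FaDu at 72 h allows no test. It held 565.1 CPM of ITGB4, 116.0 of LAMB3 and 9.68 of LAMA3, against 273.1, 21.09 and 2.67 CPM in the single untreated library. Its ITGA6 was at 201.2 CPM against 54.02 CPM, and its COL17A1 at 118.8 CPM against 35.87 CPM. COL7A1 was lower in it, at 19.75 against 125.6 CPM. The EpEX library was at 203.3 CPM of ITGB4 and 20.74 of LAMB3, and the EGFlow library, which carries replicate label 3, at 250.1 and 41.24 CPM.

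Between the lines, all 9 genes differed in untreated cells at 6 h, where 22.4% of all 19634 genes tested did, 12% being higher in Kyse30 and 10.4% higher in FaDu. COL17A1 stood at 378.8, 200.6 and 774.3 CPM in Kyse30 and at 7.96 and 30.26 CPM in FaDu (log2FC 4.56, standard error 0.65, adjusted p = 1.48e-07). ITGA6 was at 716.4, 498.4 and 611.3 CPM against 74.83 and 80.95 CPM (2.97, 0.23, 3.41e-15). ITGB4 was at 902.4, 1113.3 and 1422.8 CPM against 163.1 and 270.7 CPM (2.40, 0.36, 5.37e-07). Both subunits of the receptor were thus higher in Kyse30. LAMA3 was at 33.17, 22.97 and 23.78 CPM against 1.90 and 4.80 CPM (2.98, 0.54, 2.19e-05), and LAMB3 at 95.40, 85.78 and 127.6 CPM against 39.79 and 36.87 CPM (1.42, 0.43, 0.0111). COL7A1 was the exception, at 2.75, 2.51 and 6.33 CPM in Kyse30 and at 46.80 and 72.66 CPM in FaDu (-3.94, 0.63, 1.76e-06).

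For DST the log2FC between the lines was 1.07 (adjusted p = 0.0268), for PLEC 0.86 (0.0104) and for CD151 0.73 (0.0254). No gene of the 9 had overlapping groups, as was so for 47% of all genes. Without FaDu replicate 3 only 5 of the 9 were called, and LAMB3, PLEC, DST and CD151 were not. LAMB3 (adjusted p = 0.1) and DST (0.185) also missed the threshold without FaDu replicate 4, and PLEC (0.0858), CD151 (0.057) and DST (log2FC 0.54, adjusted p = 0.33) without Kyse30 replicate 4. CD151 was lost without Kyse30 replicate 3 too. Over all alternatives the adjusted p of these 4 genes ran from 6.55e-06 to 0.1, from 3.7e-05 to 0.33, from 6.07e-05 to 0.25 and from 0.00611 to 0.298 for LAMB3, DST, PLEC and CD151. Without FaDu replicate 4 the log2FC of COL17A1 was 5.82 (adjusted p = 4.55e-06, range over alternatives 2.8e-51 to 0.000435). Cell line and everything that differed between the cultures and library preparations of the lines cannot be told apart. The response to EGFhigh at 6 h was not shown to differ between the lines for any of the 9 genes (0.0611% of all genes called, 4.91% and 1 of the 9, DST, at an unadjusted p under 0.05), with a difference in log2FC of -0.23 for ITGB4 (0.45) and 0.33 for ITGA6 (0.28).

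**Figure D5:**
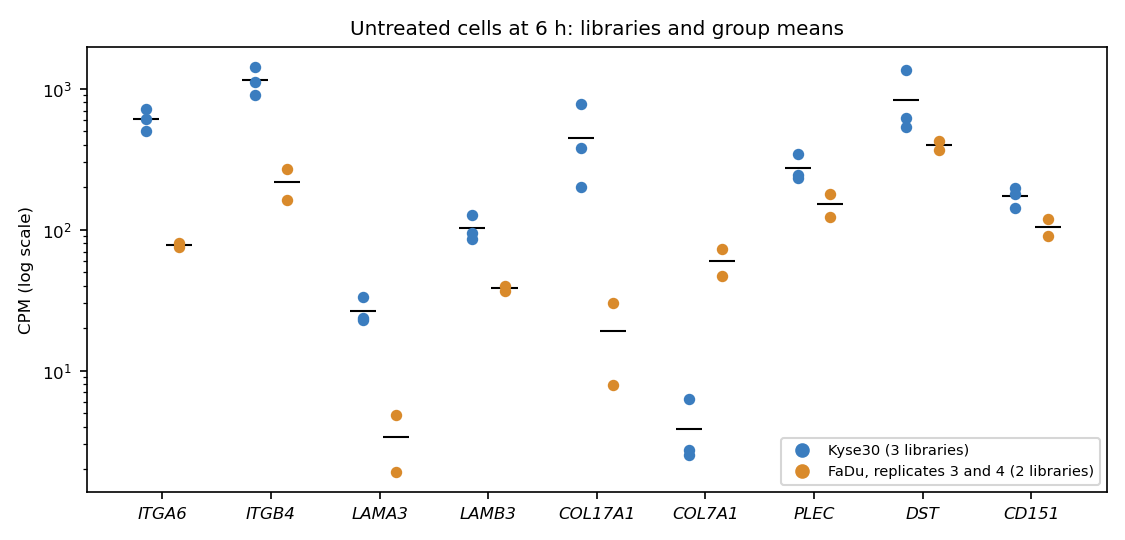
The 9 genes in untreated cells at 6 h (CPM, log axis) in the 3 Kyse30 and the 2 FaDu libraries, with a point for each library and a line at the mean. Kyse30 lies above FaDu for 8 genes, and below it for COL7A1, at 2.51 to 6.33 against 46.80 and 72.66 CPM.

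Of 14 other basement membrane genes reported here, 12 were tested for EGFhigh at 72 h in Kyse30. None of the 12 rose and FREM2 fell, where 3.04% of all genes were called higher and 3.16% lower, and their median log2FC was -0.60. FREM2, a membrane protein of the basement membrane's Fraser complex, was at 18.60, 17.17 and 17.79 CPM without and at 0.583, 7.31 and 0 CPM with EGFhigh (log2FC -2.82, standard error 0.89, adjusted p = 0.0462), the last value being below the floor of that library. The call was lost without replicate 1 (log2FC -2.31, adjusted p = 0.197) or 4 (-2.21, 0.174) of EGFhigh, without any 1 of the untreated libraries (0.0904 to 0.0946) and without all libraries labelled replicate 4 (-2.22, 0.116), and with only these groups in the fit (0.171). Without EGFhigh replicate 3, the library at 7.31 CPM, the log2FC was -5.75 (adjusted p = 0.00134), a size that depends on the prior count, and over all alternatives the adjusted p ranged from 8.97e-05 to 0.197. LAMA5, LAMB1, LAMB2 and LAMC1, which make up other laminins, the type IV collagen genes COL4A1, COL4A2, COL4A5 and COL4A6, HSPG2, AGRN and FRAS1 were not called. Counts of NID1 and NID2 were too low to be tested. LAMB2, at 0.39 (standard error 0.49), was the 1 gene of the 12 with a log2FC above 0.

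Of 12 genes for partners in anchorage, 2 rose with EGFhigh at 72 h, against 3.04% of all genes, with a median log2FC of 0.43 over the list. ITGA3, the α subunit of the other laminin-332 receptor, was at 121.6, 99.03 and 103.1 CPM without and at 222.0, 206.1 and 242.9 CPM with EGFhigh (1.05, 0.23, adjusted p = 0.0028, at most 0.026 over all alternatives). With EpEX added it was at 108.4, 83.86 and 136.9 CPM, and fell by 1.03 (0.23, adjusted p = 0.00571), a call that was lost without EGFhigh + EpEX replicate 2 (0.0926) or with only these groups in the fit (0.0546). The keratin gene KRT17 went from 14.98, 4.39 and 18.40 CPM to 44.90, 22.29 and 108.8 CPM (2.22, 0.54, adjusted p = 0.00777), the last in replicate 4. Without that library the log2FC was 1.42 (adjusted p = 0.141), without all libraries labelled replicate 4 1.41 (0.162) and without untreated replicate 2 1.83 (0.0807), so that the call was lost, as it was with only these groups in the fit (0.0626, range over all alternatives 5.78e-06 to 0.162). KRT17 has close paralogs and pseudogenes, among which reads may be split. ITGB1, the β subunit that pairs with ITGA3, rose at 6 h with EGFlow (0.88, 0.19, adjusted p = 0.0129) and with EGFhigh (0.80, 0.19, adjusted p = 0.0145). Both calls were lost without untreated replicate 1 (0.0651 and 0.0704) or 4 (0.113 and 0.115) and without all libraries labelled replicate 4 (0.342 and 0.228).

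From the 12 genes of the EGF response list, the ligand gene AREG (log2FC 1.93, adjusted p = 0.00597), the early response gene IER3 (1.92, 0.00403) and PHLDA1 (1.19, 0.00934) rose with EGFhigh at 72 h, and DUSP6, a phosphatase of ERK, fell by 1.10 (0.0281), so that 3 of the 12 were called higher and 1 lower, against 3.04% and 3.16% of all genes. The median log2FC of the list was 0.42. AREG and IER3 were called in every alternative (adjusted p at most 0.0465 and 0.0358). PHLDA1 was not called without EGFhigh replicate 4 (1.03, 0.0544), nor DUSP6 without replicate 1 or 3 of either group (0.0737 to 0.153) or without all libraries labelled replicate 4 (-1.26, 0.0604). Markers moved in the same comparison. SFN, the epithelial 14-3-3 protein, was at 576.6, 403.0 and 518.4 CPM without and at 1969.1, 1057.9 and 1754.7 CPM with EGFhigh (1.67, 0.35, adjusted p = 0.00173, at most 0.0218 over all alternatives), and together with KRT17 made 2 of 7 squamous markers higher, against the same 3.04%. CD68, the only leukocyte marker abundant enough to be tested, was at 1.02, 0 and 0.205 CPM without and at 5.72, 7.49 and 11.56 CPM with EGFhigh (4.15, 1.30, adjusted p = 0.0462). That call was lost without any 1 of the EGFhigh libraries or of untreated replicates 2 and 3 (0.0712 to 0.208), without a filter (0.0864) and without all libraries labelled replicate 4 (3.84, 0.157). The remaining leukocyte markers PTPRC, CD3E, CD14 and CD79A had a median of 0 CPM in Kyse30, and the part of CD68 in the results was not tested.

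The genes whose pattern over the 13 Kyse30 conditions was most like that of ITGB4, by Pearson correlation of mean log2 CPM among 10241 genes, were GSN (r = 0.952), SERINC2 (0.944), RAB3B (0.943), S100P (0.94) and FXYD5 (0.939). Over the 43 single libraries their r was 0.805, 0.848, 0.507, 0.385 and 0.849, and SERINC2 and FXYD5 stayed among the top 5, with VAT1 (0.852), AHNAK2 (0.836) and TMC6 (0.82). For LAMB3 they were SERPINE2 (0.954), ABHD17C (0.947), CAMK2N1 (0.947), PPP1R18 (0.944) and CITED4 (0.943). Over single libraries these had r from 0.667 to 0.769, and of them PPP1R18 alone stayed among the top 5, beside EIF1 (0.781), CDKN1A (0.759), PHLDA1 (0.755) and NDRG1 (0.752). LAMA3 came at rank 29 for LAMB3 (r = 0.874, and 0.653 over the 43 single libraries). ITGB4 and LAMB3 correlated with r = 0.809 over conditions, but ITGB4 and its partner ITGA6 with r = 0.0658. These are descriptions over 13 points that share 1 condition of very high values, EGFhigh at 72 h, and the libraries labelled replicate 4.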

How the data were processed

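RNA of Kyse30 and FaDu cells was sequenced from the 3′ end (QuantSeq 3′ FWD), so that counts do not grow with transcript length. Libraries were amplified by PCR, and copies of 1 molecule cannot be told from separate molecules in the counts. The submitters' processing notes name STAR for alignment, HTSeq for counting and GRCh38 (hg38) as the genome; versions, the strand setting and any use of molecular identifiers are not given in the sources used here. The authors deposited 1 table of raw counts per library, with 58395 Ensembl gene identifiers, of which 57754 were paired with a symbol, and summary lines. Those lines name no gene and were left out of library sizes. They held reads without a unique place (24.6 to 43.6% of a Kyse30 library, 41.0 to 51.3% of a FaDu library of replicates 3 and 4), outside genes (5.3 to 15.3% and 5.76 to 10.1%) or in overlapping genes (0.752 to 1.06% and 0.648 to 0.819%). None of the 3486 pairs of the 84 libraries agreed within counting error (chi-square of 4.77 or more per degree of freedom), which does not show that none come from the same RNA. The closest pair were FaDu libraries of replicates 1 and 2 from different conditions, whereas same-condition pairs of that set began at 50.2.

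Groups were taken from the sample titles. Counts were analyzed with edgeR 4.0.16 in R 4.3.3 (limma 3.58.1), with TMM normalization and quasi-likelihood F tests, separately for 43 Kyse30 libraries (15350 genes) and 20 FaDu libraries (16022 genes), and jointly for the comparison of the lines (19634 genes). Genes were kept with filterByExpr (minimum count 10, minimum total 15). P-values were adjusted by Benjamini-Hochberg over all genes kept, and the standard error is the absolute log2FC divided by the square root of F. CPM use TMM library sizes. Promoter windows came from RefSeq (GRCh38.p14), gene positions from GENCODE on GRCh38. Named were the 9 genes, up to 5 called genes of each companion list in the EGFhigh comparison at 72 h, and the 5 genes most like ITGB4 and LAMB3; other list genes named were chosen after their values were seen. The 9 genes, the lists and the tests were chosen with earlier results of these data known. Alternatives were DESeq2 1.42.0, RLE size factors, no filter, a mean of at least 5 CPM, a replicate block, only the groups compared, untreated and Fc libraries together as control, all FaDu libraries, each library left out in turn and, chosen after seeing the data, no libraries labelled replicate 4. FaDu groups with 1 library have values only. A gene of the basement membrane list is not reported here.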

Additional observations from a re-analysis of the deposited data

Results flagged for a closer look

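In groups of 4 libraries, the gap of the highest or lowest library to its neighbor was compared with the range of the group for each of the 9 genes. A library stood apart in 5 of 36 such sets, where normally distributed values give about 1 in 20. The sets share the same libraries and are not independent, so no excess is read from this count. ITGB4 was lowest at 760.1 CPM in replicate 2 of EGFhigh + EpEX at 6 h and highest at 1180.9 CPM in replicate 4 of EGFlow at 6 h. COL17A1 was highest at 644.3 CPM in the same EGFlow library. At 72 h of EGFlow, DST was highest at 1336.6 CPM in replicate 4 and COL7A1 lowest at 3.683 CPM in replicate 2. The 3 high values were all in libraries labelled replicate 4.

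The response of ITGB4 to EGFhigh differed between 72 h and 6 h in Kyse30 by 2.27 on the log2 scale (edgeR interaction test, adjusted p = 0.00166, range over alternatives 3.09e-11 to 0.0103).

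The 21 FaDu libraries labelled replicate 1 or 2, which entered the comparisons only in the alternative fit of all FaDu libraries, had medians over the highest control library of replicates 3 and 4 for 3 genes, on CPM of plain library totals. The median of ITGA6 was 116.5 CPM (range 6.69 to 1268.5), with 11 libraries above 93.16 CPM. For LAMA3 it was 4.842 CPM (1.397 to 572.9), with 11 libraries above 4.809 CPM, and for CD151 187.6 CPM (81.27 to 257.0), with 15 libraries above 132.0 CPM. For 4 other genes the median lay below the lowest library of replicates 3 and 4, at 56.81 against 159.0 CPM for ITGB4, 9.133 against 20.91 for LAMB3, 7.419 against 20.01 for COL7A1 and 163.1 against 292.5 for DST. The cause was not tested.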

How the results depend on the processing

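The counts of the 9 genes called in the EGFhigh comparisons with untreated cells (3) and with EGFlow (3) at 72 h in Kyse30 held in every alternative that left no single library out. DESeq2 called 2 genes for EGFhigh at 6 h in Kyse30 (1 by edgeR), and 1 where edgeR called 0 for EpEX at 6 h, untreated cells at 72 against 6 h, the EGFlow response at 72 against 6 h, and FaDu EGFhigh and EpEX at 6 h. In FaDu EGFhigh + EpEX at 72 h, DESeq2, no filter, the replicate block and a fit of only these groups each called 2 (0). RLE size factors changed 1 of the 27 counts, that of EGFhigh + EpEX against EGFhigh at 72 h, where they, DESeq2, no filter, a mean of at least 5 CPM and a fit of only these groups each called LAMB3, making 3 (2). A mean of at least 5 CPM gave 1 (0) for untreated cells at 72 against 6 h. Without a filter, DST replaced ITGA6 for EGFlow and EGFhigh at 6 h, EGFhigh + EpEX at 6 h had 3 (2), the EGFhigh response at 72 against 6 h had 2 (1), FaDu EGFhigh 2 (0), FaDu EpEX 3 (0) and FaDu Fc at 72 against 6 h 3 (1). With only the groups compared, EGFhigh + EpEX at 6 h had 1 (2). With untreated and Fc libraries together as control, EGFlow at 6 h had 2 (1), EGFhigh 3 (1) and EpEX 1 (0). All FaDu libraries together gave 0 for EGFlow at 6 h and for Fc at 72 against 6 h (1 each). Without libraries labelled replicate 4, EGFlow and EGFhigh at 6 h had 0 (1 each) and EGFhigh + EpEX against EGFhigh at 72 h 1 (2). Apart from the block, the share of all genes called under each setting is not set beside these counts. A higher count may go with more calls over all genes, and is not read as a result about the 9 genes. COL17A1 under EGFhigh at 72 h (log2FC 0.41) was at -0.06 under the block, -0.04 without libraries labelled replicate 4 and between -0.03 and 0.66 with 1 library left out. The cause was not tested.

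Entering the replicate number as a block raised the calls to 2 (1) for EGFlow, 3 (1) for EGFhigh and 2 (0) for EpEX at 6 h, and to 1 (0) for untreated cells at 72 against 6 h and for FaDu EGFhigh and EpEX at 6 h. The genes gained were PLEC (EGFlow), PLEC and DST (EGFhigh, log2FC 0.69 and -0.87, adjusted p = 0.00685 and 0.0217), ITGA6 and PLEC (EpEX), ITGA6 (untreated) and CD151 (both FaDu comparisons). Calls over all genes rose with them, from 1.5 to 2.72%, 2.55 to 4.14%, 0.0261 to 0.313%, 1.55 to 2.67%, 3.06 to 4.27% and 3.5 to 4.76%, and for FaDu EGFhigh + EpEX at 72 h from 0.818 to 1.54%. Deviations of libraries with the same number correlated with a mean r of 0.0633 (lowest -0.131, 43 libraries) in Kyse30 and 0.0713 (lowest -0.0362, 14 libraries) in FaDu. Between different numbers the mean r was -0.0216 and -0.0713, so libraries with the same number were slightly more alike. The main fits left the number out, and these values do not settle whether it pairs the samples. CD151 missed the threshold between the lines under the block (log2FC 0.51, adjusted p = 0.143).

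Leaving out 1 library at a time gave 0 to 1 calls for EGFlow and EGFhigh at 6 h, 2 to 3 for EGFhigh against EGFlow and 1 to 3 for EGFhigh + EpEX against EGFhigh at 72 h, 0 to 1 for FaDu EGFlow, EpEX and Fc at 72 against 6 h, and 5 to 9 between the lines, where genes and dispersion trend of the full fit were kept. A lone library was assumed to vary like the other groups. The ranges that follow also take in other alternatives. Their lowest values for EGFlow and EGFhigh at 6 h, 1 and 45, are those of the fits without libraries labelled replicate 4. Calls over all genes moved more: from 951 to between 475 and 1628 for EGFhigh at 72 h, from 573 to between 241 and 824 against EGFlow, from 550 to between 187 and 846 with EpEX added, from 230 to between 1 and 776 for EGFlow and from 391 to between 45 and 1105 for EGFhigh at 6 h, from 694 to between 197 and 1112 for EGFhigh + EpEX at 6 h, from 4 to between 0 and 106 for EpEX at 6 h, from 238 to between 72 and 479 for untreated cells, from 155 to between 62 and 401 for the response over time, and from 4400 to between 2572 and 4835 between the lines. In FaDu all 5 comparisons with calls fell to 0 with all libraries. Depth limits COL7A1 in Kyse30 and LAMA3 in FaDu most, with medians of 5.35 and 4.35 CPM.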
